A study of Homo sapiens with 24 samples.

Results

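The contrast described here is the difference in the R406 response between a promyelocyte-like leukemia line, HL-60, and an early myeloblast leukemia line, KG-1. For each gene, the log2 effect of R406 in HL-60 (R406 minus dimethyl sulfoxide, DMSO) had the log2 effect of R406 in KG-1 subtracted from it. A positive difference therefore means that the effect was higher in HL-60. The contrast uses 12 of the 24 arrays of the series, with 3 arrays in each of 4 groups: HL-60 with R406, HL-60 with DMSO, KG-1 with R406 and KG-1 with DMSO. R406 was given at 4 µM for 24 h, and the DMSO cells received the solvent for 24 h. No genetic change is labelled in either line. All 12165 genes with a probe set of a single gene symbol were compared, each through its brightest such probe set. The treatments are labelled as triplicate, with no statement on separate cultures or days. The p-values therefore measure the spread between these samples, which may be technical.

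R406 is the active metabolite of the drug fostamatinib. It competes with ATP for the tyrosine kinase SYK, and it also inhibits other kinases, among them the growth factor receptors FLT3 and KIT. In blood cells SYK binds phosphorylated ITAM motifs of adaptor proteins, which couple immune receptors and integrins to phospholipase C, phosphatidylinositol 3-kinase and the RAS to ERK cascade. Active ERK turns on immediate early genes and also genes for its own inhibitors, such as the DUSP phosphatases and the Sprouty and SPRED proteins. HL-60 came from a promyelocytic stage leukemia and can mature towards granulocytes or monocytes. KG-1 came from a less mature myeloblastic leukemia and carries the stem and progenitor antigen CD34.

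The marker genes followed the labels in part. MPO, the peroxidase of primary granules, gave intensities of 6547, 6341 and 6359.9 in the 3 HL-60 arrays with DMSO, against 29.5, 24.5 and 31.6 in the 3 KG-1 arrays with DMSO. ELANE, neutrophil elastase, gave 2894, 2453 and 2580.4 in HL-60 with DMSO and 7.73, 10.3 and 9.47 in KG-1 with DMSO. CD34 ran the other way, at 16.7, 15.6 and 21.6 in HL-60 with DMSO and 557, 732 and 549 in KG-1 with DMSO. The MHC class II chain HLA-DRA was also a KG-1 marker, at 12.2, 11.1 and 11.3 in HL-60 with DMSO and 2961, 2668 and 2563 in KG-1 with DMSO. BAALC, a further gene listed as a KG-1 marker, was near the bottom of the scale in both lines, at 4.94, 5.94 and 5.21 in HL-60 with DMSO and 5.53, 5.53 and 5.99 in KG-1 with DMSO.

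One array stood apart. KG-1 R406 replicate 2 differed from its 2 fellow replicates with an SD of 0.261 on the log2 scale over all probe sets, against 0.144 to 0.191 for the other 11 arrays. In that array all 36 measured mitosis genes and all 39 DNA replication genes lay below the mean of the other 2 KG-1 R406 arrays, with median gaps of -1.14 and -0.77. Over all probe sets the median gap was 0.0044. Some other lists leaned too: 24 of 28 MYC and ribosome genes and 16 of 19 unfolded protein response genes lay below, and 10 of 12 MHC class II genes above. Its 3' to 5' log2 ratio of the ACTB control probe sets, an indicator of RNA integrity, was 0.967, the highest of the 12 arrays. Over the 3 arrays of a group, that ratio was 0.13 lower with R406 than with DMSO in HL-60 and 0.12 higher with R406 in KG-1, and each gave p = 0.1 in an exact two-sided permutation test, the smallest p that 3 against 3 allows. The same ratio of the GAPDH control probe sets was -0.011 in HL-60 (R406 minus DMSO, exact permutation p = 0.9) and 0.10 in KG-1 (p = 0.1). The part of RNA integrity in the results was not tested. Values that replicate 2 moved by over 1.5 times are given with and without it. Intensities ran from 3.41 to 12686, with medians of 19.1 to 21.4 per array. Precision is limited by the 3 arrays a group.

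The lines differed in the R406 effect on a large share of genes, mostly through larger effects in KG-1. The difference passed an adjusted p of 0.05 for 4236 of 12165 genes (34.8%), with 2092 higher in HL-60 (17.2%) and 2144 lower in HL-60 (17.6%). Within HL-60, 821 genes rose (6.75%) and 905 fell (7.44%). Within KG-1, 2830 rose (23.3%) and 2510 fell (20.6%), or 43.9% in all. With each array centred on its median, 2383 rose and 2945 fell in KG-1, so which direction was the more frequent there depends on the centring. The median absolute effect over all genes was 0.11 in HL-60 and 0.20 in KG-1 on the log2 scale. Of the genes higher in HL-60, 1375 fell in KG-1 with no call in HL-60 and 310 fell in both lines. Of those lower in HL-60, 1572 rose in KG-1 with no call in HL-60 and 166 rose in both lines. Effects called in opposite directions were found for 318 genes (2.61%), of which 133 rose in HL-60 and fell in KG-1, and 185 fell in HL-60 and rose in KG-1. The difference was at least 2-fold for 496 genes higher and 437 lower in HL-60. For 4064 genes (33.4%) the smallest effect that any pair of arrays gave in one line exceeded the largest in the other.

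Without KG-1 R406 replicate 2, the difference was called for 1976 genes higher (16.2%) and 2004 lower (16.5%) in HL-60. Of the 4236 genes, 3807 were called again with the same sign and 0 changed sign. A mean intensity under 10.1, below which 33.3% of probe sets lay, was taken as dim. Among the 933 called differences of at least 2-fold, 70 genes were dim in both groups of HL-60 alone and 24 in both groups of KG-1 alone, where a fall has little room to show. Of all genes, called or not, 463 (3.81%) were dim in HL-60 alone and 428 (3.52%) in KG-1 alone. Over all genes the median difference was -0.016, which is the background for the list medians below. The background for the list counts is the share of all genes called. For the difference it is 17.2% higher and 17.6% lower in HL-60. Within HL-60 it is 6.75% risen and 7.44% fallen, and within KG-1 23.3% and 20.6%.

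**Figure D1:**
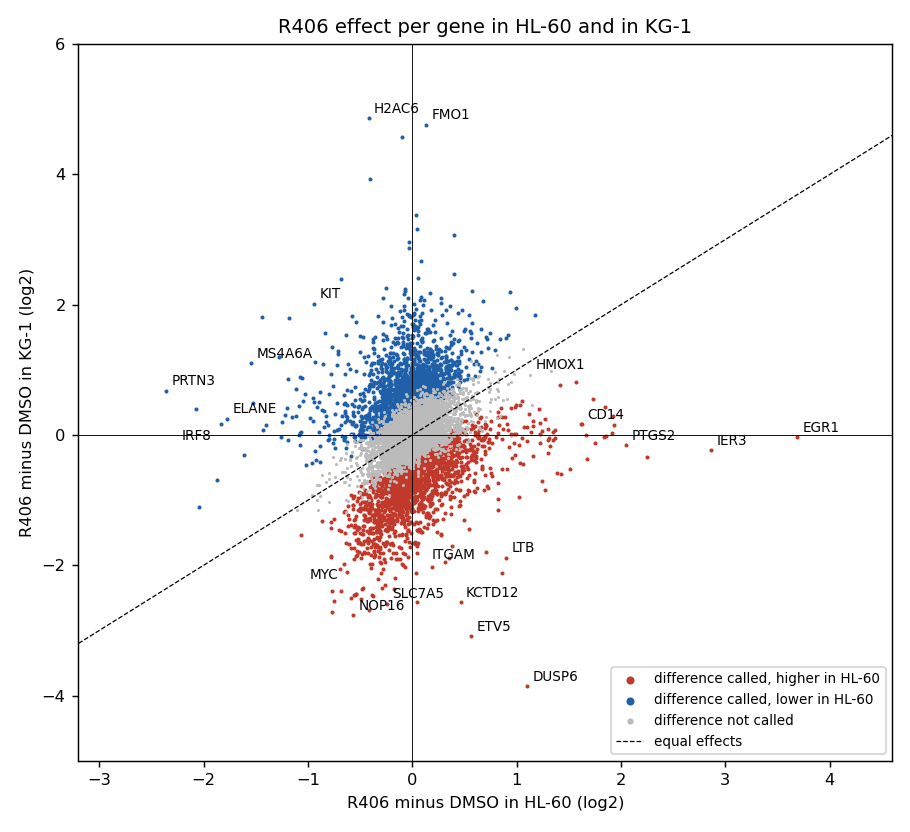
Each point is 1 gene, with the R406 minus DMSO effect in HL-60 on the horizontal axis and in KG-1 on the vertical axis, both log2. Red points (2092) have a called difference that is higher in HL-60, blue points (2144) one that is lower in HL-60, and grey points no called difference. The dashed line marks equal effects, and the cloud is taller than it is wide.

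Most of the measured genes driven by ERK rose in HL-60, and some of these fell in KG-1. In the list of immediate early and ERK output genes, 34 of 37 were measured, and the difference was called as higher in HL-60 for 19 and as lower for 1, where 17.2% and 17.6% of all genes were. The median difference was 0.66. In HL-60 20 of the 34 rose and 0 fell (6.75% and 7.44% of all genes). In KG-1 4 rose and 12 fell (23.3% and 20.6% of all genes). Called effects ran in opposite directions for 9 of them, against 2.61% of all genes. Without KG-1 R406 replicate 2 the median was 0.64, with 21 higher and 1 lower, and 9 fell in KG-1.

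The promoters of the list members with the largest differences in the RefSeq promoter table, DUSP6 and EGR1, are printed as the 250 bases before the start site (GRCh38.p14), 5′ to 3′ along the gene. Capitals mark matches to the CArG box, the site read by serum response factor at immediate early genes. DUSP6 lies on the minus strand at chr12:89352502-89352751 and EGR1 on the plus strand at chr5:138465229-138465478.
DUSP6: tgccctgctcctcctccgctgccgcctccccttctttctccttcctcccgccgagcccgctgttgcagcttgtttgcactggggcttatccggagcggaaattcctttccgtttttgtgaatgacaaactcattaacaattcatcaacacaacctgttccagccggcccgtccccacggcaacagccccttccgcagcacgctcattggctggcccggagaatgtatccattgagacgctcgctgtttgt
EGR1: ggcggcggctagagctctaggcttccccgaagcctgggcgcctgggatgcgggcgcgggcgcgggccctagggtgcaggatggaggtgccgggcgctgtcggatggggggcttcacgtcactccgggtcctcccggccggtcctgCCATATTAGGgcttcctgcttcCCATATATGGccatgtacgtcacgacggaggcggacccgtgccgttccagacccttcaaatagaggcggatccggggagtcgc
The EGR1 window held 2 CArG boxes, starting 105 and 83 bases before the start site. The DUSP6 window held none of the 4 motifs searched on both strands: the CArG box, the cyclic AMP response element TGACGTCA, the NF-kB site and the ETS core CCGGAA. Of the 34 measured members, 23 had an entry in the table of windows of 300 bases, which add 50 bases after the start. The CArG box was found in 2 of the 23 (8.70%), against 1.25% of the 9711 promoters of measured genes and 1.29% of all 27305 promoters. The ETS core was found in 8 (34.8%), against 24.5% for measured genes and 17.6% for all. TGACGTCA was found in 2 (8.70%), against 3.05% and 1.98% in the same order of backgrounds, and the NF-kB site in 1 (4.35%), against 6.47% and 5.72%. A match in a window is a description of its letters only.

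DUSP6, the phosphatase that removes the activating phosphates from ERK, had the largest positive difference of all genes named by the rule. Its intensities were 717, 674 and 594 in HL-60 with R406 and 339, 297 and 289 in HL-60 with DMSO, against 47.2, 48.7 and 46.4 in KG-1 with R406 and 689, 782 and 630.2 in KG-1 with DMSO. Every R406 array of HL-60 lay above every DMSO array of that line, and every R406 array of KG-1 lay far below its DMSO arrays. DUSP6 rose by 1.10 ± 0.10 in HL-60 and changed by -3.85 ± 0.10 in KG-1 (log2 ± SE), which gave a difference of 4.95 ± 0.14 (limma, adjusted p = 3.02e-16). Here and below each effect rests on 3 arrays a group. In RNA from whole cultures, fewer cells with a transcript and less of it per cell cannot be told apart.

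ETV5, an ETS factor of the PEA3 group that ERK induces, was alike in direction. It gave 268, 293 and 284 in HL-60 with R406 and 189, 191 and 192 in HL-60 with DMSO, against 10.4, 14.8 and 8.38 in KG-1 with R406 and 102, 97.8 and 101 in KG-1 with DMSO, a difference of 3.65 ± 0.17 (adjusted p = 5.69e-13). The KG-1 R406 values were close to the dim level. Further ERK inhibitors that fell in KG-1 were SPRED2 (0.31 in HL-60 with no call, and -1.95 in KG-1), DUSP2, DUSP4, DUSP5 and SPRY4. The last 4 rose in HL-60, by 0.54, 0.72, 0.83 and 0.44, and had effects of -1.44, -0.82, -1.15 and -0.55 in KG-1. The HL-60 calls were lost for DUSP2 without DMSO replicate 1 or 3 (0.48 to 0.64), and for SPRY4 without DMSO replicate 1 or R406 replicate 1 or 2 (0.34 to 0.49). Of the other inhibitors on the list, SPRY2 fell in KG-1 (-0.25; call lost without KG-1 DMSO replicate 2 or R406 replicate 3, -0.31 to -0.17), SPRY1 rose there (0.37), and DUSP1 gave 0.19 with no call. With the probe sets of SPRED2 averaged, its difference was 0.78 in place of 2.26.

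The immediate early transcription factors differed mostly through HL-60. EGR1, whose promoter is printed above, gave 686, 682 and 526 in HL-60 with R406 and 46.9, 62.7 and 36.9 in HL-60 with DMSO. In KG-1 it gave 9.27, 9.61 and 13.9 with R406 and 12.3, 11.1 and 9.78 with DMSO. The HL-60 groups were far apart and the KG-1 groups overlapped near the dim level, so the difference of 3.72 ± 0.26 (adjusted p = 3.43e-10) lay almost wholly in HL-60. IER3, a stress-induced modulator of ERK signalling and cell death, gave 547, 656 and 547 in HL-60 with R406 and 73.0, 81.6 and 82.5 in HL-60 with DMSO, against 13.5, 12.1 and 15.4 in KG-1 with R406 and 15.1, 16.1 and 17.5 in KG-1 with DMSO. Its difference was 3.10 ± 0.16 (adjusted p = 2.7e-12). JUN and FOS, the partners of the AP-1 factor, rose in HL-60 by 1.51 and 1.22. JUN fell in KG-1, with an effect of -0.52, a call lost without KG-1 R406 replicate 2 (-0.38) or DMSO replicate 1, and FOS gave -0.12 there with no call. ZFP36, which destabilises cytokine mRNAs, was the 1 member with a lower difference (-0.71 ± 0.14, adjusted p = 0.000345). It rose in both lines, by 0.57 in HL-60 and 1.28 in KG-1. The members without a called difference included DUSP1 (-0.34), KLF2 (-0.21), KLF6 (0.064), NR4A1 (0.16) and SPRY2 (0.33, but 0.39 and called without KG-1 R406 replicate 2, adjusted p = 0.0307).

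**Figure D2:**
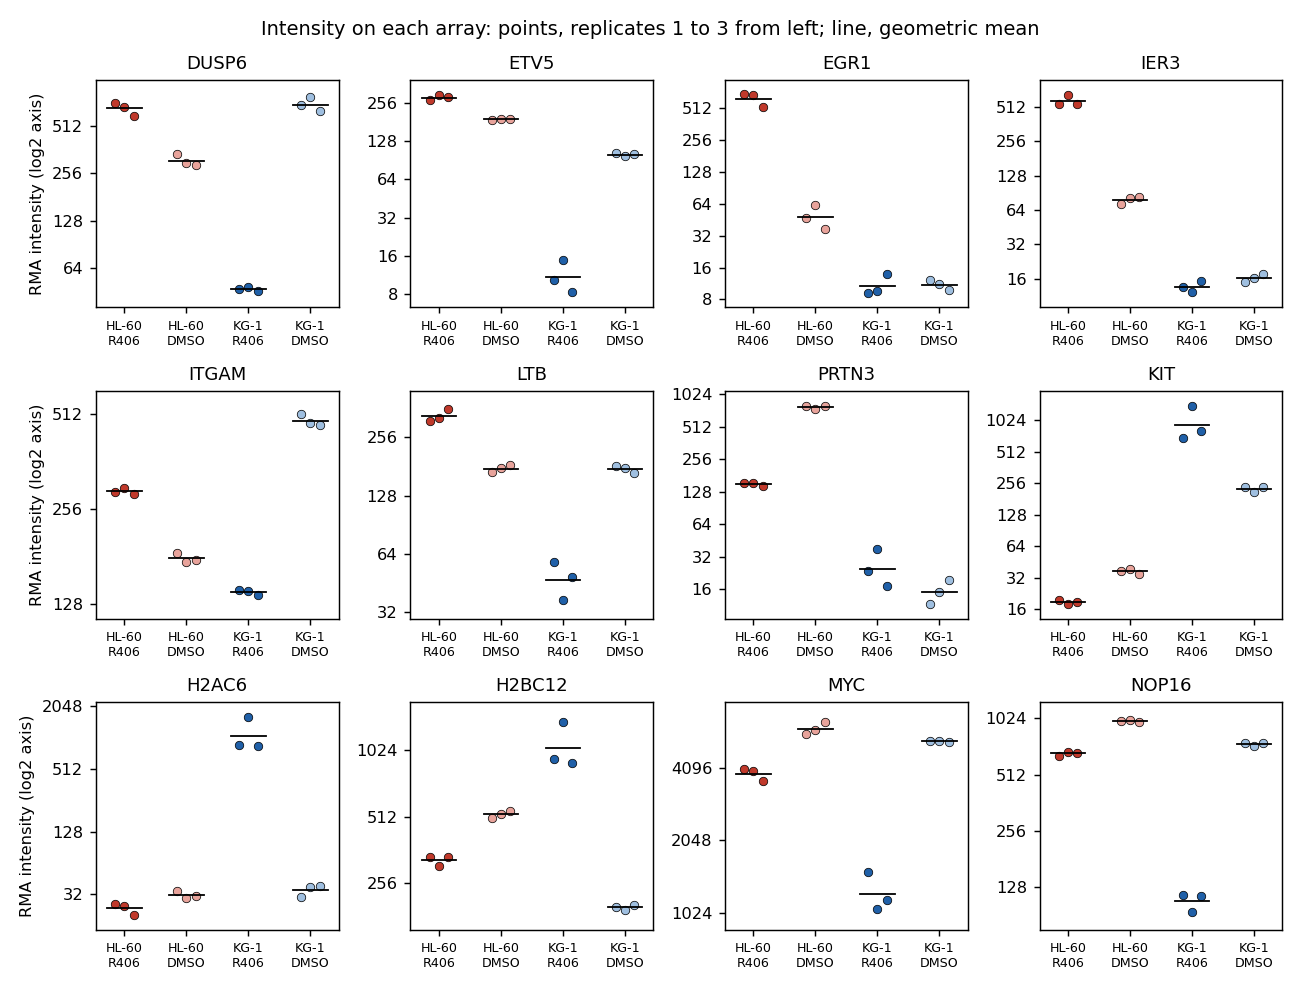
Each panel is 1 gene, with the RMA intensity on a log2 axis for the 3 arrays of HL-60 R406, HL-60 DMSO, KG-1 R406 and KG-1 DMSO, and a line at their geometric mean. DUSP6 and ETV5 are lowest in KG-1 with R406, EGR1 and IER3 are highest in HL-60 with R406, and H2AC6 and H2BC12 are highest in KG-1 with R406.

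More genes of inflammation rose in HL-60 than in KG-1. Of the 32 measured targets of NF-kB and inflammatory cytokines, the difference was higher in HL-60 for 15 and lower for 4, with a median of 0.34 (0.20 without HL-60 R406 replicate 3). In HL-60 17 rose and 0 fell, and in KG-1 10 rose and 6 fell. Of the 32, 4 were dim in both HL-60 groups and 10 in both KG-1 groups. The cytokine gene LTB, lymphotoxin beta, led the list with 312, 324 and 358 in HL-60 with R406 and 169, 178 and 184 in HL-60 with DMSO, against 58.2, 36.8 and 48.4 in KG-1 with R406 and 183, 177 and 168 in KG-1 with DMSO. It was therefore up in one line and down in the other, with a difference of 2.78 ± 0.21 (adjusted p = 1.32e-09). PTGS2, the inducible prostaglandin synthase, gave 50.0, 35.5 and 39.2 in HL-60 with R406 and 9.78, 8.81 and 8.92 in HL-60 with DMSO, and 8.81, 7.89 and 10.1 in KG-1 with R406 and 9.69, 12.9 and 8.01 in KG-1 with DMSO. Its difference of 2.21 ± 0.19 (adjusted p = 5.97e-09) lay in HL-60, while the KG-1 groups overlapped near the dim level. It was 1.25 with a pseudocount of 16.

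The chemokine CCL2, which attracts monocytes, differed by 2.05 ± 0.17 (adjusted p = 4.69e-09), with effects of 1.68 in HL-60 and -0.37 in KG-1. Its KG-1 call was lost without DMSO replicate 2 or R406 replicate 1 or 3 of that line (-0.49 to -0.30). IL1B (1.62), TNF (1.30), CCL20 (1.58) and G0S2 (1.66) also differed upwards and rose in HL-60. With a pseudocount of 16 the G0S2 difference was 0.84. The exceptions were members that rose more in KG-1: CXCL8, the neutrophil attractant, rose by 1.17 in HL-60 and 1.84 in KG-1. TNFAIP3 and REL, a brake and a subunit of NF-kB, gave 0.28 and 0.056 in HL-60, without calls, and rose by 0.95 and 0.83 in KG-1. Of the NF-kB subunits, NFKB1 and NFKB2 had no called difference (-0.016 and -0.22).

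Receptors of mature myeloid cells moved both ways. Of 23 receptors for chemoattractants and microbial patterns, 2 were dim in both HL-60 groups and 7 in both KG-1 groups. Of the differences, 8 were higher and 5 lower in HL-60 (17.2% and 17.6% of all genes), with a median of 0.068. That median was 0.045 without KG-1 R406 replicate 2, and ran from 0.0071 without KG-1 R406 replicate 3 to 0.14 without KG-1 R406 replicate 1. It was also under 0.045 without HL-60 DMSO replicate 2 or 3 or KG-1 DMSO replicate 2. FPR2, a receptor for formylated peptides, gave 99.4, 98.2 and 115 in HL-60 with R406 and 24.2, 26.6 and 35.7 in HL-60 with DMSO, against 8.06, 8.94 and 9.81 in KG-1 with R406 and 8.28, 10.0 and 9.10 in KG-1 with DMSO. FPR2 was thus raised in HL-60 and dim in KG-1, with a difference of 1.86 ± 0.20 (adjusted p = 1.34e-07). CD14, the endotoxin coreceptor, gave 812, 883 and 864 in HL-60 with R406 and 348, 249 and 241 in HL-60 with DMSO, against 6.86, 5.92 and 6.28 in KG-1 with R406 and 5.26, 5.72 and 5.71 in KG-1 with DMSO. The HL-60 groups were far apart, and all KG-1 values were dim. Its difference was 1.46 ± 0.18 (adjusted p = 1.42e-06). CXCR4, the receptor for CXCL12, ran the other way at -1.20 ± 0.15 (adjusted p = 1.68e-06), with -0.24 in HL-60, no call, and a rise of 0.96 in KG-1. CCR2, a monocyte chemokine receptor, fell in both lines, with effects of -1.88 in HL-60 and -0.70 in KG-1.

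Of 26 monocyte and macrophage markers 9 differences were higher and 4 lower in HL-60 (median 0.24), and of 25 granulocyte maturation markers 9 were higher and 3 lower (median 0.27). In both KG-1 groups 10 of the 26 and 7 of the 25 were dim, against 4 and 5 in both HL-60 groups. ITGAM, the CD11b chain of the complement receptor on mature myeloid cells, gave 290.4, 298 and 285 in HL-60 with R406 and 185, 173 and 176 in HL-60 with DMSO. In KG-1 it gave 141, 140.1 and 136 with R406 and 510.3, 478 and 472 with DMSO. The gene was up in HL-60 and down in KG-1, with no overlap in either line and a difference of 2.50 ± 0.12 (adjusted p = 1.13e-12). With its probe sets averaged the difference was 1.28. MMP9, a secreted gelatinase, rose in HL-60 by 1.75 ± 0.17 and gave -0.13 ± 0.17 in KG-1 with no call. Its difference was 1.88, or 1.21 with a pseudocount of 16. S100A9 and S100A12, calcium-binding proteins of neutrophils and monocytes, rose in HL-60 by 1.02 and 1.13 and differed by 1.17 and 1.09. S100A8, the partner of S100A9, rose in both lines, by 0.48 in HL-60 and 0.56 in KG-1, with no called difference. Its HL-60 call was lost without any 1 of 5 of the line's 6 arrays (0.42 to 0.55). OLR1, a scavenger receptor, fell in HL-60 with an effect of -1.43 and differed by -1.51, or by -0.71 with a pseudocount of 16.

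The genes of primary granules, which promyelocytes pack with proteases and peroxidase, fell in HL-60. Of 13 measured, the difference was lower in HL-60 for 11 and higher for 0, with a median of -1.05 (-1.18 without KG-1 R406 replicate 2). In HL-60 9 fell and 0 rose, and in KG-1 6 rose and 2 fell. Of the 13, 0 were dim in both HL-60 groups and 2 in both KG-1 groups. PRTN3, proteinase 3, gave 154, 155 and 146 in HL-60 with R406 and 797, 755 and 804 in HL-60 with DMSO, against 23.8, 37.3 and 17.1 in KG-1 with R406 and 11.7, 15.1 and 19.4 in KG-1 with DMSO. All HL-60 R406 values lay at a small part of the DMSO values, while the KG-1 groups overlapped at low values. PRTN3 was called as risen in KG-1 (0.68), or 0.40 without replicate 2, the highest of its 3 R406 arrays. The difference was -3.04 ± 0.25 (adjusted p = 3.03e-09).

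ELANE gave 793, 779 and 735 in HL-60 with R406, against the DMSO values above, an effect of -1.78 ± 0.18, and a difference of -2.02 ± 0.25 (adjusted p = 1.04e-06). AZU1 and DEFA4, an antimicrobial serine protease homologue and a defensin, fell in HL-60, with effects of -1.25 and -1.19. In KG-1 with DMSO, ELANE (values above) and AZU1 (mean 9.57) were near the dim level, so a fall there had little room to show. CTSG, cathepsin G, fell in both lines, with effects of -2.04 in HL-60 and -1.10 in KG-1. MPO gave -0.37 ± 0.15 in HL-60 with no call (adjusted p = 0.13) and rose by 1.25 ± 0.15 in KG-1, where it gave 73.4, 71.9 and 62.4 with R406. Of the myeloid transcription factors, 23 measured, 5 differences were higher and 7 lower in HL-60 (median -0.15, or -0.083 without HL-60 DMSO replicate 3). IRF8, a factor of monocyte and dendritic cell fate, gave 77.0, 84.3 and 83.1 in HL-60 with R406 and 292, 298 and 287 in HL-60 with DMSO, and 22.4, 13.8 and 22.2 in KG-1 with R406 and 16.4, 17.4 and 16.6 in KG-1 with DMSO. Its fall was seen in HL-60, with a difference of -2.00 ± 0.16 (adjusted p = 1.61e-09). MYB, a progenitor factor, fell in HL-60 (-0.41) and rose in KG-1 (0.71). SPI1 and CEBPA, central factors of the myeloid lineage, had no called difference (-0.0035 and 0.24).

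**Figure D3:**
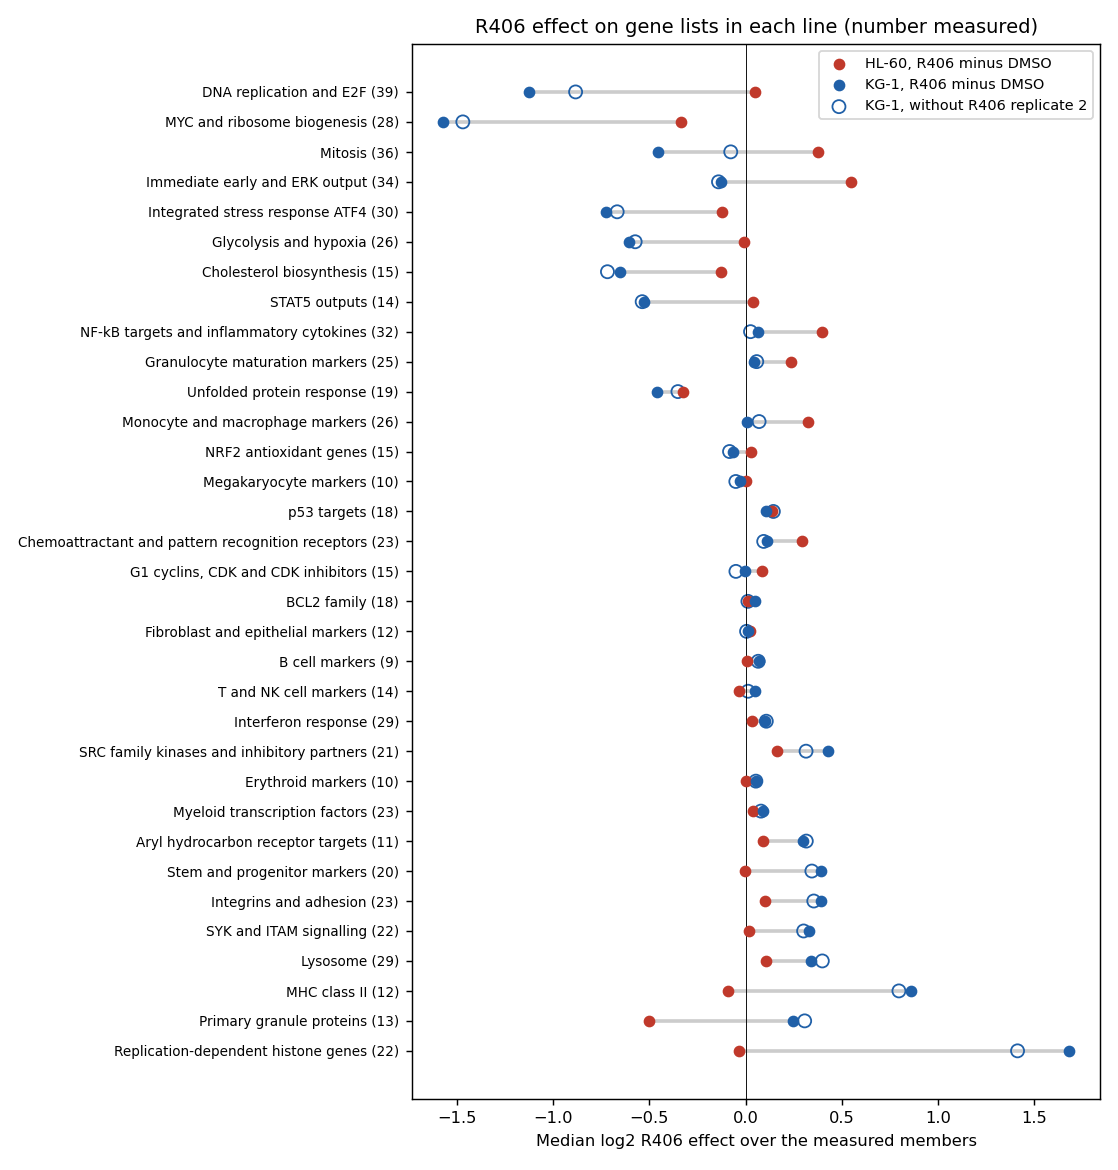
Each row is 1 of the 33 gene lists, with its number of measured genes in brackets, and the horizontal axis is the median log2 R406 effect over those genes. Red dots are HL-60, blue dots KG-1 and open circles KG-1 without R406 replicate 2. The widest gaps are those of the histone genes (-0.033 in HL-60 and 1.68 in KG-1), DNA replication (0.050 in HL-60 and -1.13 in KG-1) and MYC and ribosome biogenesis (-0.33 in HL-60 and -1.57 in KG-1).

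Many stem and progenitor markers rose in KG-1. Of 20 measured, 2 rose and 3 fell in HL-60, against 11 and 2 in KG-1. The difference was lower in HL-60 for 9 and higher for 2 (median -0.20), with 10 of the 20 dim in HL-60. The median was -0.35 without KG-1 R406 replicate 2 and -0.13 without KG-1 R406 replicate 1. KIT, the receptor of stem cell factor, gave 19.5, 18.1 and 18.9 in HL-60 with R406 and 37.5, 38.9 and 34.6 in HL-60 with DMSO, against 691, 1419.9 and 810.3 in KG-1 with R406 and 236, 213 and 237 in KG-1 with DMSO. It moved in opposite directions, with -0.94 ± 0.20 in HL-60 and 2.02 ± 0.20 in KG-1, a difference of -2.95 ± 0.29 (adjusted p = 4e-08). FLT3, the receptor for FLT3 ligand, was alike, with -0.94 in HL-60, 1.12 in KG-1 and a difference of -2.05. MN1, MEIS1 and PBX3, regulators of leukemic self-renewal, rose in KG-1 by 1.75, 0.66 and 1.13, and only PBX3 of the 3 rose in HL-60 (0.43). CD34 itself rose in KG-1 by 0.71 ± 0.14 and differed by -0.71 ± 0.19 (adjusted p = 0.00599). GATA2, a progenitor factor, rose in HL-60 (1.22) and in KG-1 (0.40). Its KG-1 call was lost without any 1 of the 3 DMSO arrays or R406 replicate 2 (0.19).

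SYK, the target of R406, gave 575, 595 and 569 in HL-60 with R406 and 597, 573 and 606 in HL-60 with DMSO, against 730.1, 643 and 739 in KG-1 with R406 and 549, 523 and 534 in KG-1 with DMSO. Its transcript had no called effect in HL-60 (-0.03 ± 0.067, adjusted p = 0.872) and rose in KG-1 (0.39 ± 0.067), a difference of -0.42 ± 0.094 (adjusted p = 0.00114). Of 22 genes of SYK and ITAM signalling, 4 differences were higher and 6 lower in HL-60 (median -0.23), where 17.2% and 17.6% of all genes were. Of the 22, 6 rose in HL-60 and 13 in KG-1, where 6.75% and 23.3% of all genes rose. TYROBP, the ITAM adaptor DAP12, gave 1597, 1650.4 and 1629 in HL-60 with R406 and 1229, 1109 and 1106 in HL-60 with DMSO, against 114, 155 and 115 in KG-1 with R406 and 42.1, 38.0 and 40.7 in KG-1 with DMSO. It rose in both lines and more in KG-1, with a difference of -1.13 ± 0.14 (adjusted p = 9.82e-07). FCER1G, the other main ITAM adaptor, rose by nearly equal amounts, 0.74 in HL-60 and 0.70 in KG-1, with a 95% interval of the difference of -0.32 to 0.39. BTK, a kinase downstream of SYK, and CBLB, a ubiquitin ligase that restrains it, rose in KG-1 by 0.62 and 0.83 and were not called in HL-60. The CBLB difference was -0.55 with its probe sets averaged, in place of -1.11.

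Among 21 SRC family kinases and inhibitory partners, 4 differences were higher and 8 lower in HL-60 (median -0.064). The median was -0.11 without KG-1 R406 replicate 2 or HL-60 DMSO replicate 2, and -0.098 without HL-60 DMSO replicate 3. LCK, a SRC family kinase best known from T cells, gave 9.95, 11.04 and 8.77 in HL-60 with R406 and 9.97, 9.19 and 10.9 in HL-60 with DMSO, against 121, 86.0 and 136 in KG-1 with R406 and 36.6, 33.8 and 24.5 in KG-1 with DMSO. The HL-60 groups overlapped near the dim level and the KG-1 groups did not overlap, with a difference of -1.83 ± 0.20 (adjusted p = 2.8e-07). The inhibitory receptor LAIR1 and the phosphatases PTPN6 and INPP5D, which counter ITAM signals, rose in KG-1 by 1.24, 0.90 and 1.05. CD300A, another inhibitory receptor, was reversed, with 1.06 ± 0.11 in HL-60 and -0.45 ± 0.11 in KG-1. LYN, the main SRC family kinase of myeloid cells, rose in both, by 0.38 in HL-60 and 0.70 in KG-1.

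Integrins were split by chain. Of 23 integrin and adhesion genes, the difference was higher in HL-60 for 4 and lower for 10 (median -0.22), and 6 had called effects in opposite directions. ITGB3, the integrin of the study's title, was dim in both lines and had no called difference (-0.14 ± 0.17, adjusted p = 0.642). Its partner chain ITGAV gave 0.17 ± 0.13 in HL-60 with no call and rose by 1.20 ± 0.13 in KG-1, a difference of -1.02 ± 0.18 (adjusted p = 0.000112). ITGA2B, its partner on platelets, fell in KG-1 (-1.24 ± 0.13). Of the leukocyte chains, ITGAL and ITGA4 fell in HL-60 (-0.28 and -0.76) and rose in KG-1 (1.46 and 0.76). ITGB2, the beta chain shared by ITGAL and ITGAM, ran the opposite way, with 0.59 in HL-60 and -0.17 in KG-1. The HL-60 call of ITGAL was lost without DMSO replicate 1 or 3 or R406 replicate 2 or 3 (-0.36 to -0.24), and the KG-1 call of ITGB2 without any 1 of 5 of the 6 arrays (-0.18 to -0.14).

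The outputs of STAT5, a transcription factor downstream of cytokine receptors, fell mainly in KG-1. Of 14 measured, 3 rose and 1 fell in HL-60, against 1 and 10 in KG-1, and the difference was higher for 7 and lower for 1 (median 0.35). PIM1, a survival kinase, gave 44.1, 40.1 and 43.6 in HL-60 with R406 and 34.0, 37.5 and 28.8 in HL-60 with DMSO, against 81.7, 75.0 and 73.0 in KG-1 with R406 and 286, 305 and 271 in KG-1 with DMSO. PIM1 was a little higher with R406 in HL-60 and far lower in KG-1, with a difference of 2.24 ± 0.15 (adjusted p = 1.27e-10). The HL-60 call of PIM1 was lost without DMSO replicate 1 or 3 or R406 replicate 1 or 3 of that line, with effects of 0.25 to 0.43 over the arrays left out. ID1, an inhibitor of helix-loop-helix factors, is also on the list of myeloid factors. It gave 0.041 in HL-60 with no call and fell in KG-1 (-2.56), a difference of 2.61. The mean ID1 intensity with DMSO was 12.9 in HL-60, near the dim level, and 149.6 in KG-1. A fall in HL-60 therefore had little room to show, and the part of this in the ID1 difference was not tested. The feedback inhibitors CISH and SOCS2 fell in KG-1 (-0.94 and -0.62) and had no call in HL-60. BCL6, a repressor that STAT5 holds down, rose in both lines, by 0.67 in HL-60 and 2.05 in KG-1, and its difference of -1.38 was -0.57 with probe sets averaged and -0.70 with a pseudocount of 16. CCND2, cyclin D2, fell in both lines without a called difference (-0.65 in HL-60 and -0.72 in KG-1).

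MYC and most of the ribosome biogenesis genes it drives fell in both lines, and further in KG-1. Of 28 measured, 22 fell in HL-60 and 27 in KG-1, and 0 rose in either. The difference was higher in HL-60 for 26 and lower for 0, with a median of 1.16 (1.09 without KG-1 R406 replicate 2). MYC gave 4046, 3999 and 3608 in HL-60 with R406 and 5678, 5903 and 6352 in HL-60 with DMSO, against 1510.0, 1056 and 1161 in KG-1 with R406 and 5292, 5316 and 5257 in KG-1 with DMSO. The effects were -0.62 ± 0.092 in HL-60 and -2.11 ± 0.092 in KG-1, and the difference 1.48 ± 0.13 (adjusted p = 9.54e-09). NOP16, a nucleolar protein of large subunit assembly, gave 646, 677 and 668 in HL-60 with R406 and 982, 998 and 974 in HL-60 with DMSO, against 117, 95.1 and 115 in KG-1 with R406 and 752, 725 and 755 in KG-1 with DMSO. Both lines separated their R406 and DMSO arrays, the wider gap being in KG-1. BOP1, another large subunit factor, differed by 2.27 ± 0.13, SRM, spermidine synthase, by 1.90 ± 0.086, and ODC1, which starts polyamine synthesis, by 1.17 ± 0.13. The members without a called difference were NPM1 (0.085) and POLR1B (-0.033).

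Nearly all DNA replication genes fell in KG-1. Of 39 genes of replication and E2F, 1 rose and 1 fell in HL-60 (median 0.050), while 0 rose and 37 fell in KG-1 (median -1.13). The difference was higher in HL-60 for 36 and lower for 0, with a median of 1.18, or 0.95 without KG-1 R406 replicate 2 (36 higher, and CDT1, a helicase loading factor, lower). CDC6, which loads the replicative helicase, gave 162, 175 and 175 in HL-60 with R406 and 176, 169 and 156 in HL-60 with DMSO, against 77.9, 41.6 and 79.3 in KG-1 with R406 and 254, 307 and 278 in KG-1 with DMSO. The HL-60 groups overlapped and the KG-1 groups did not, with a difference of 2.15 ± 0.25 (adjusted p = 5.25e-07) and 1.85 without replicate 2. MCM7, a helicase subunit, differed by 1.21 ± 0.11 (1.09 without replicate 2) and RRM2, of ribonucleotide reductase, by 1.56 ± 0.29 (1.15). CCNE2, cyclin E2, was the member with opposite calls, 0.60 in HL-60 and -0.58 in KG-1.

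For mitosis genes the size of the difference rested in large part on 1 array. With all arrays, 27 of 36 differences were higher in HL-60 and 0 lower, with a median of 0.84. Without KG-1 R406 replicate 2, 28 were higher and 0 lower, with a median of 0.49. In HL-60 6 rose and 0 fell (median 0.38). In KG-1 0 rose and 20 fell with all arrays (median -0.45), whereas 7 rose and 11 fell without replicate 2 (median -0.077), where 21.7% of all genes rose and 19.1% fell. CCNB1, the mitotic cyclin, gave 374, 343 and 324 in HL-60 with R406 and 308, 295 and 296 in HL-60 with DMSO, against 576, 242 and 608 in KG-1 with R406 and 814, 865 and 766 in KG-1 with DMSO. The second KG-1 R406 value was the lowest of the 12, and the difference was 1.10 ± 0.28 with all arrays and 0.67 without it. CENPA, the centromeric histone, gave 1.29 ± 0.25 and 0.91, and CDC20, an activator of the anaphase ligase, 1.14 ± 0.32 and 0.63. The summed intensity of the list ran from 27495 to 27817 in HL-60 with R406 and from 21477 to 22755 in HL-60 with DMSO. In KG-1 it ran from 9896 to 20308 with R406 and from 21148 to 22246 with DMSO.

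**Figure D4:**
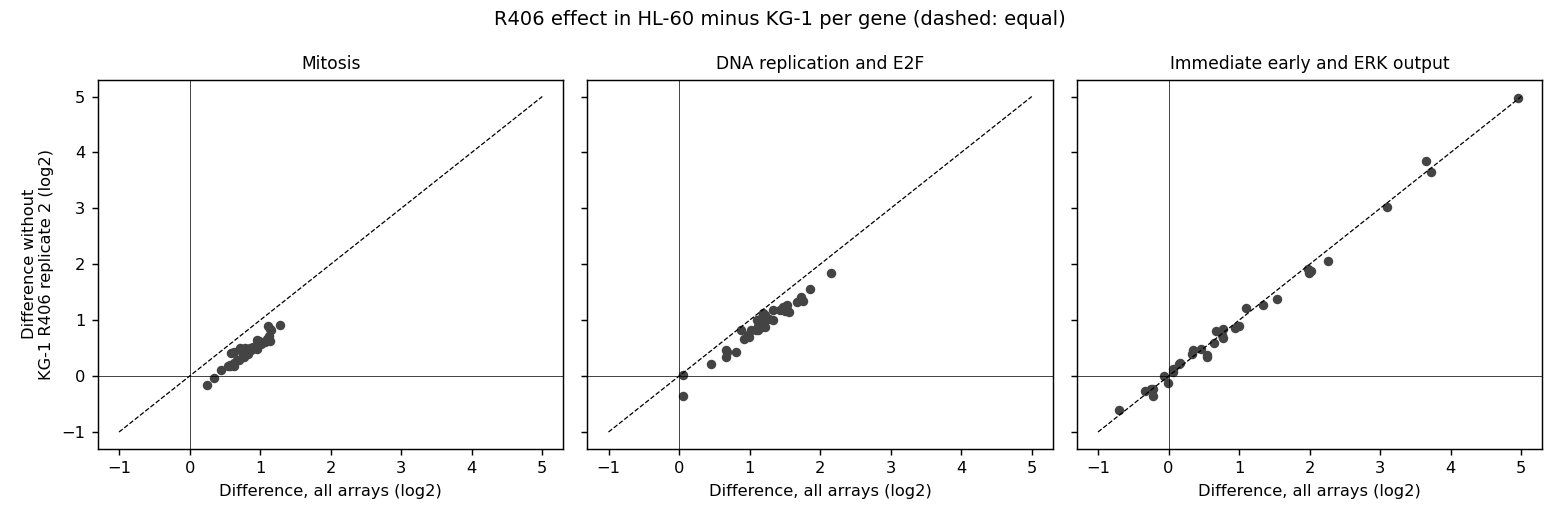
Each point is 1 gene of the mitosis, DNA replication or immediate early and ERK list, with its log2 difference (HL-60 effect minus KG-1 effect) from all arrays on the horizontal axis and without KG-1 R406 replicate 2 on the vertical axis. Mitosis genes lie below the dashed line of equality (medians 0.84 and 0.49), as do most DNA replication genes (1.18 and 0.95), and the ERK list lies close to it (0.66 and 0.64).

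Among 15 G1 cyclins, CDKs and CDK inhibitors, 5 differences were higher and 3 lower (median 0.066). The median was 0.036 without HL-60 DMSO replicate 1, 0.039 without KG-1 DMSO replicate 1 and 0.11 without HL-60 R406 replicate 3. CCND3, cyclin D3, gave 889.7, 871 and 925 in HL-60 with R406 and 493, 487 and 453 in HL-60 with DMSO, against 225, 231 and 229 in KG-1 with R406 and 325, 319.9 and 341 in KG-1 with DMSO. It rose in HL-60 and fell in KG-1, a difference of 1.43 ± 0.087 (adjusted p = 3.38e-11). CDKN1A, the p21 inhibitor, rose in HL-60 (1.12 ± 0.16), while CDKN1B, p27, and RBL2, the p130 pocket protein of quiescent cells, rose in KG-1 (0.82 and 1.03).

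Histone genes rose in KG-1, and one of them, H2AC6, had the lowest difference of all genes named by the rule. The replication-dependent histone genes lie in clusters, and their mRNAs normally end in a stem loop in place of a poly(A) tail. Of 22 measured, 0 rose and 1 fell in HL-60 (median -0.033), against 13 and 0 in KG-1 (median 1.68). The difference was lower in HL-60 for 13 and higher for 0, with a median of -1.62, or -1.26 without KG-1 R406 replicate 2. H2AC6 gave 25.9, 24.6 and 20.3 in HL-60 with R406 and 34.3, 29.8 and 31.1 in HL-60 with DMSO, against 864, 1629 and 844 in KG-1 with R406 and 30.4, 37.9 and 38.7 in KG-1 with DMSO. All 3 KG-1 R406 arrays lay far above the other 9, and the highest was replicate 2. The difference was -5.28 ± 0.24 (adjusted p = 4.72e-13), and -4.97 without that array.

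H2BC5 and H2BC21 followed with -4.33 ± 0.30 and -3.34 ± 0.35, and H2BC12 fell in HL-60 (-0.69) while it rose in KG-1 (2.40). The linker histone gene H1-2 differed by -1.89 ± 0.13. Without a called difference were H1-3, H1-4, H1-5, H2AC18, H2BC8, H3C2, H3C7, H4C3 and H4C8. Sequences of histone genes of 1 class are nearly identical, so a probe set may read several of them. KG-1 R406 replicate 2, which lay below the mean of the other 2 arrays for all replication and mitosis genes, lay above it for 17 of the 22 histone genes. The part of the low replication genes in the histone result was not tested.

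Genes of several metabolic lists fell mainly in KG-1. Of 30 genes of the integrated stress response, which ATF4 drives when amino acids run short, 3 rose and 6 fell in HL-60 (median -0.12), against 3 and 23 in KG-1 (median -0.72). The difference was higher in HL-60 for 19 and lower for 3 (median 0.57). SLC7A5, the transporter of large neutral amino acids, gave 235, 233 and 261 in HL-60 with R406 and 293, 259.8 and 314 in HL-60 with DMSO, against 99.3, 89.6 and 90.3 in KG-1 with R406 and 565, 535 and 592 in KG-1 with DMSO. The KG-1 R406 arrays were far below the rest, with a difference of 2.34 ± 0.12 (adjusted p = 2.7e-12). PSAT1, of serine synthesis, fell in both lines (-0.77 in HL-60 and -2.72 in KG-1), with the HL-60 call lost without HL-60 DMSO replicate 2 or R406 replicate 1 (-0.87 to -0.63). TRIB3, a pseudokinase induced by ATF4, rose in HL-60 (0.83) and fell in KG-1 (-0.98). The lower differences were those of DDIT3, DDIT4 and SLC38A2, which rose in KG-1 by 1.32, 1.24 and 0.54. ATF4 itself had no called difference (-0.071).

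Of 26 genes of glycolysis and hypoxia, 4 rose and 7 fell in HL-60, against 1 and 18 in KG-1, with 16 differences higher and 3 lower (median 0.55). SLC2A3, the high-affinity glucose transporter, gave 239.8, 210.4 and 185 in HL-60 with R406 and 78.4, 99.0 and 84.5 in HL-60 with DMSO, against 44.0, 23.0 and 26.2 in KG-1 with R406 and 61.9, 48.4 and 53.3 in KG-1 with DMSO. It rose in HL-60 and fell in KG-1, a difference of 2.11 ± 0.24 (adjusted p = 3.76e-07). HK1, a hexokinase, rose in HL-60 (0.45) and fell in KG-1 (-1.02), and LDHA, lactate dehydrogenase, gave -0.10 in HL-60 with no call and fell in KG-1 (-1.32). NDRG1, a hypoxia-induced gene, rose in KG-1 (1.14). Of 15 genes of cholesterol synthesis, 3 fell in HL-60 and 11 in KG-1, with 9 differences higher and 0 lower (median 0.49), led by HMGCS1, which makes the precursor of mevalonate (1.37 ± 0.17). SQLE, squalene epoxidase, fell in both with a 95% interval of the difference of -0.20 to 0.40, and its HL-60 call was lost without HL-60 DMSO replicate 2 (-0.59 to -0.31 over the arrays).

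Of 19 genes of the unfolded protein response, 0 rose and 10 fell in HL-60, and 3 rose and 12 fell in KG-1. Of them 8 fell in both lines, with 7 differences higher and 4 lower (median 0.25). MANF, a secreted endoplasmic reticulum protein, fell in both, with -0.33 in HL-60 and -1.23 in KG-1. Its HL-60 call was lost without DMSO replicate 1 or 2 or R406 replicate 1 or 2 of that line (-0.38 to -0.26). DNAJB9, a cochaperone of HSPA5, fell in HL-60 (-0.44) and rose in KG-1 (0.28). Another DNAJB9 probe set did not show the rise, with -0.52 in HL-60, -0.065 in KG-1 and no called difference (-0.45, adjusted p = 0.103).

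Targets of the aryl hydrocarbon receptor, a ligand-activated factor that induces detoxifying enzymes, had called effects mostly in KG-1. Called effects were more frequent in KG-1 over all genes too (43.9%, against 14.2% in HL-60). Of 11 measured, 3 differences were higher and 5 lower in HL-60 (median -0.19, but -0.097 without HL-60 DMSO replicate 1 and -0.099 without KG-1 R406 replicate 3). CYP1A1, the best known target, gave 14.4, 11.6 and 12.1 in HL-60 with R406 and 11.6, 9.61 and 16.1 in HL-60 with DMSO, against 477, 857 and 449 in KG-1 with R406 and 125, 94.7 and 102 in KG-1 with DMSO. The HL-60 values were not separated and the KG-1 values were, a difference of -2.35 ± 0.25 (adjusted p = 1.56e-07). TIPARP, a repressor of the receptor, gave 0.093 ± 0.16 in HL-60 with no call and rose by 1.44 ± 0.16 in KG-1, and AHR, the receptor gene, fell there (-1.05 ± 0.081). Of 15 NRF2 antioxidant genes 6 differences were higher and 2 lower (median 0.17, or 0.11 without HL-60 R406 replicate 3). PRDX1, a peroxidase, fell in KG-1 (-1.23) and NQO1, a quinone reductase, rose in HL-60 (0.51) and fell in KG-1 (-0.44).

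Most MHC class II genes, which present antigen to helper T cells, rose in KG-1. Of 12 MHC class II genes 0 rose and 3 fell in HL-60 (median -0.091), against 8 and 0 in KG-1 (median 0.86), and the difference was lower for 8 and higher for 0 (median -1.01). CD74, the invariant chain, gave 68.0, 70.4 and 72.4 in HL-60 with R406 and 91.7, 82.0 and 100.1 in HL-60 with DMSO, against 969, 1004 and 928 in KG-1 with R406 and 478, 435 and 442 in KG-1 with DMSO. The levels in HL-60 were a small fraction of those in KG-1. CD74 differed by -1.47 ± 0.13 (adjusted p = 1.59e-08) and HLA-DMA, a peptide loader, by -1.49 ± 0.14. CIITA, the master regulator of these genes, rose in KG-1 (1.28 ± 0.17). The list's summed intensity was 199 to 203 in HL-60 with R406 and 232 to 238 in HL-60 with DMSO, against 16606 to 18623 in KG-1 with R406 and 9994 to 11018 in KG-1 with DMSO.

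Of 29 lysosomal genes 7 rose and 2 fell in HL-60 (median 0.11), against 21 and 1 in KG-1 (median 0.34), and 2 differences were higher and 12 lower (median -0.25). TPP1, a lysosomal peptidase, rose by 0.28 in HL-60 and 1.49 in KG-1, and NPC2, a cholesterol carrier, by 1.28 in KG-1. The HL-60 call of TPP1 was lost without HL-60 DMSO replicate 3 or R406 replicate 3 (0.24 to 0.32). Of 29 interferon response genes 3 differences were higher and 5 lower (17.2% and 17.6% of all genes). Their median, -0.052, was near 0 and had no settled sign: it was -0.016 without KG-1 R406 replicate 2 and ran from -0.038 to 0.0014 over the arrays left out 1 at a time, the highest without HL-60 DMSO replicate 1. IRF7, a master regulator of that response, rose in both lines, by 0.57 in HL-60 and 1.71 in KG-1, while GBP1 and IFITM3, antiviral effectors, fell in KG-1 (-1.33 and -1.11).

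Survival and p53 genes were mixed. Of 18 measured BCL2 family genes 6 differences were higher and 3 lower (17.2% and 17.6% of all genes). Their median, -0.0013, had no settled sign and was 0.036 without KG-1 R406 replicate 2. MCL1, a short-lived survival protein, rose in HL-60 (0.87 ± 0.064) and had no call in KG-1 (0.087 ± 0.064), a difference of 0.78 ± 0.091 (adjusted p = 5.52e-07). Its other probe sets had negative effects in KG-1, from -0.85 to -0.17, and gave 0.23 to 0.79 in HL-60. Their differences ran from 0.50 to 1.64. BCL2A1, an NF-kB-induced member, rose in both, by 1.41 in HL-60 and 0.76 in KG-1, and BCL2 fell in both (-0.89 in HL-60 and -0.42 in KG-1). Without KG-1 R406 replicate 2 the KG-1 effect of BCL2 was -0.19 and not called. Of 18 p53 targets 5 differences were higher and 3 lower (17.2% and 17.6% of all genes). The p53 median was 0.11, but 0.045 without KG-1 R406 replicate 2 and 0.24 without KG-1 R406 replicate 3. CCNG1, cyclin G1, and ZMAT3, an RNA-binding growth inhibitor, rose in KG-1 by 1.28 and 1.21.

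Some of the widest differences lay in genes outside the lists. KCTD12, an auxiliary subunit of GABA-B receptors, gave 347, 343 and 285 in HL-60 with R406 and 249, 207 and 251 in HL-60 with DMSO, against 13.4, 13.4 and 15.7 in KG-1 with R406 and 86.2, 96.1 and 84.7 in KG-1 with DMSO. It rose in HL-60 and fell in KG-1, with a difference of 3.03 ± 0.18 (adjusted p = 3.11e-11). Its HL-60 call was lost without DMSO replicate 2 or R406 replicate 1 or 2 (0.37 to 0.55). TUBA4A, an alpha tubulin, likewise rose in HL-60 (0.86) and fell in KG-1 (-2.11). TNFRSF10C, a decoy receptor for the death ligand TRAIL, rose in HL-60 by 2.25 ± 0.16, and its difference of 2.58 was 1.67 with probe sets averaged and 1.46 with a pseudocount of 16. FKBP11, a prolyl isomerase of the secretory pathway, fell in KG-1 (-2.02).

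At the low end, FMO1, a flavin monooxygenase, gave 7.29, 6.41 and 7.52 in HL-60 with R406 and 6.73, 6.84 and 5.60 in HL-60 with DMSO, against 386, 839 and 465 in KG-1 with R406 and 20.2, 20.0 and 15.9 in KG-1 with DMSO. ADGRG6, an adhesion G protein-coupled receptor, gave 6.64, 6.12 and 5.91 in HL-60 with R406 and 6.15, 7.13 and 6.94 in HL-60 with DMSO, against 155, 419 and 179 in KG-1 with R406 and 10.4, 7.97 and 7.70 in KG-1 with DMSO. Both were high in the KG-1 R406 arrays and low in the other 9, with differences of -4.63 ± 0.25 and -4.66 ± 0.30. ATP9A, a phospholipid flippase, SCN3A, a sodium channel, and DPEP2, a dipeptidase, rose in KG-1 by 2.96, 2.87 and 3.07. With probe sets averaged the ATP9A difference was -1.57 in place of -3.00, and with a pseudocount of 16 that of SCN3A was -1.84 in place of -2.89. MS4A6A, a membrane protein of myeloid cells, PLCB4, a phospholipase C, and TNS1, a focal adhesion protein, fell in HL-60 (-1.54, -1.18 and -1.44) and rose in KG-1 (1.10, 1.80 and 1.81). For TNS1 the difference was -1.02 with its probe sets averaged, in place of -3.25.

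Some responses were shared. Of the 927 genes called the same way in both lines, 421 had no called difference, 476 had a called difference with the larger effect in KG-1, and 30 one with the larger effect in HL-60. HMOX1, heme oxygenase, gave 36.2, 40.4 and 53.7 in HL-60 with R406 and 19.5, 19.7 and 17.9 in HL-60 with DMSO, against 31.9, 30.8 and 31.9 in KG-1 with R406 and 21.5, 13.3 and 14.7 in KG-1 with DMSO. It was higher with R406 in both lines, with a 95% interval of the difference of -0.20 to 0.62. PADI4, which converts arginine in histones to citrulline, rose by 1.32 in HL-60 and 0.98 in KG-1 (interval -0.013 to 0.69). Its difference was called without KG-1 R406 replicate 2 (0.48, adjusted p = 0.03) or HL-60 R406 replicate 2 (0.47, adjusted p = 0.0374). With the probe sets of PADI4 averaged it was 0.50 and also called (adjusted p = 1.41e-05). Another PADI4 probe set gave 1.24 in HL-60 and 0.34 in KG-1, a called difference of 0.89. NOTCH1, a cell fate receptor, rose by 0.93 in HL-60 and 1.19 in KG-1 (interval -0.58 to 0.052). FILIP1L rose by 1.06 in HL-60 and 1.31 in KG-1, and KIAA0513 by 0.98 in HL-60 and 0.94 in KG-1. GNL3L, a nucleolar GTPase, gave 133, 127 and 121 in HL-60 with R406 and 129, 326 and 492 in HL-60 with DMSO, so the groups overlapped and 2 DMSO arrays set its effect of -1.11. Without HL-60 DMSO replicate 3 that effect was -0.69 and not called. GNL3L gave -1.15 in KG-1, and the interval of its difference was wide, -0.74 to 0.82. These intervals do not show equal effects, only the sizes of difference that the arrays allow.

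Among the listed markers of other cell types, NKG7, a granule protein of cytotoxic lymphocytes, was the 1 with a called effect in HL-60 (-0.29 ± 0.082), a call lost without HL-60 DMSO replicate 3 or R406 replicate 1 or 3 (-0.34 to -0.26). Of 10 erythroid markers 1 difference was called (HBD, lower), of 10 megakaryocyte markers 2 (ITGA2B and VWF, higher), of 9 B cell markers 1 (IGHM, lower), of 14 T and NK cell markers 3 (LCK, NKG7 and CD8A, lower) and of 12 fibroblast and epithelial markers 2 (COL3A1 and COL1A2, lower). With its probe sets averaged the IGHM difference was -0.26 in place of -0.69. Without KG-1 R406 replicate 2 the difference of COL1A2 was -0.29 and no longer called (adjusted p = 0.128), while that of CD8A was -0.54 (adjusted p = 0.00522). The CD8A call was lost without KG-1 R406 replicate 3 and under other alternatives given at the end. The summed T and NK markers were 281 to 299 in HL-60 with R406 and 304 to 333 in HL-60 with DMSO, against 795 to 857 in KG-1 with R406 and 471 to 491 in KG-1 with DMSO, and the T cell receptor chains CD3D, CD3E and CD3G had no called effect in either line. The fibroblast and epithelial sum was 112 to 118 in HL-60 with R406 and 104 to 122 in HL-60 with DMSO, against 171 to 216 in KG-1 with R406 and 103 to 110 in KG-1 with DMSO. COL3A1, a fibrillar collagen, accounted for most of that rise, at 67.8, 116 and 75.2 in KG-1 with R406 and 8.40, 8.94 and 8.19 in KG-1 with DMSO, while COL1A1, DCN and LUM had no called effect. The COL3A1 difference was -3.12, or -2.02 with a pseudocount of 16. HBD, a minor globin, rose in KG-1 (1.83 ± 0.13), and GATA1, the erythroid factor, had no called effect. The sums were 133 to 152 (erythroid), 106 to 126 (megakaryocyte) and 83.8 to 90.2 (B cell) in HL-60 with R406, against 127 to 150, 99.1 to 114 and 79.9 to 86.9 in HL-60 with DMSO. In KG-1 they were 312 to 425, 125 to 134 and 481 to 497 with R406, against 203 to 216, 172 to 205 and 333 to 369 with DMSO. The part of any such cells in the results was not tested.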

How the data were processed

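Gene expression of 4 leukemia lines was measured on human Affymetrix arrays, with 3 arrays for each of 8 groups. The authors deposited intensities per probe set on a linear scale, 1 column per array, made with RMA per the submitters' processing notes. RMA corrects background and normalizes by quantiles, which removes differences in total signal between arrays. Its version and settings are not given in the sources used here. The labels' treatment protocol gives R406 at 4 µM, while the series' design text has the same number in mM, and the protocol's unit is used.

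Of 22277 probe sets, 62 were controls, 568 had several gene symbols and 1923 had none listed in the platform annotation. The other 19724, of 12165 genes, were fitted as log2(intensity + 1), and 19707 of them matched RefSeq by Entrez ID. A pseudocount slightly understates the changes of dim genes. One limma model (limma 3.58.1, R 4.3.3) that fits the mean of every one of 8 groups over 24 arrays gave the effects, their difference and moderated tests, with Benjamini-Hochberg adjustment over all 19724 probe sets. Calls are genes with an adjusted p under 0.05. Each gene was read through its brightest probe set, and 4505 genes had several. For 5111 genes that probe set ends in _x_at or _s_at and may read related transcripts. The labels state no pairing of arrays by replicate number. Same-numbered arrays had correlations of -0.017 to 0.062 after group means were removed, and other pairs -0.070 to 0.047. So few arrays cannot exclude a pairing, and fits with replicate blocks are among the alternatives.

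The contrast, its members and the 33 gene lists (649 of 721 listed genes measured) were chosen with earlier results of these data known. Lists are described by counts and medians, with no set test. The rule for named genes took the 15 highest and 15 lowest differences called with and without KG-1 R406 replicate 2 whose effect ranges do not overlap, the 10 largest opposite effects, 6 shared effects, 10 genes of the study's biology and up to 4 members per list with the smallest p. Other list members are named as exceptions or for their role, and were chosen after their values were seen. Promoters are from RefSeq (GRCh38.p14). Tested on simulated data with 19724 probe sets for this contrast, the fit recovered 8% of 1.25-fold, 48% of 1.5-fold, 96% of 2-fold and 100% of 4-fold differences, and 4.55% of its calls were false. The simulation changed 50 probe sets at each fold, in HL-60 only, with independent normal noise and no outlying array. In the real data 31.7% of probe sets had a called difference, so these rates hold for the simulated setting only. The alternatives were another pseudocount, median centring, repeated quantile normalization, a filter on dim probe sets, averaged or brightest probe sets, array weights, the 12 arrays alone, replicate blocks and leaving out each array. The MOLM-14 and U937 arrays entered the fit for its estimate of spread and are not described.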

Additional observations from a re-analysis of the deposited data

Results flagged for a closer look

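The R406 effect differed between HL-60 and KG-1 in a direct test of that difference (limma, adjusted p under 0.05), with and without KG-1 R406 replicate 2, for each of the genes below, which have the 15 highest and the 15 lowest differences under the rule for named genes. Values are log2 differences, the HL-60 effect minus the KG-1 effect, from 3 arrays a group.

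The effect was higher in HL-60 for DUSP6 (4.95), EGR1 (3.72), ETV5 (3.65), IER3 (3.10), KCTD12 (3.03), TUBA4A (2.98), LTB (2.78), ID1 (2.61), TNFRSF10C (2.58), ITGAM (2.50), SLC7A5 (2.34), BOP1 (2.27), SPRED2 (2.26), PIM1 (2.24) and FKBP11 (2.21). Of these, the ERK genes DUSP6, ETV5, EGR1, IER3 and SPRED2 belong to 1 list. It was lower in HL-60 for H2AC6 (-5.28), ADGRG6 (-4.66), FMO1 (-4.63), H2BC5 (-4.33), H2BC21 (-3.34), TNS1 (-3.25), COL3A1 (-3.12), H2BC12 (-3.09), PRTN3 (-3.04), ATP9A (-3.00), PLCB4 (-2.98), KIT (-2.95), SCN3A (-2.89), DPEP2 (-2.67) and MS4A6A (-2.64). Of these, H2AC6, H2BC5, H2BC21 and H2BC12 are histone genes whose sequences are nearly identical within a class, so they may not be separate measurements. Among the higher differences, ID1 had a mean of 12.9 in HL-60 with DMSO, near the dim level, so a fall there had little room to show.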

How the results depend on the processing

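Over 22 alternatives and 150 named genes, 3255 of 3283 values kept their direction and their side of the threshold, 0 reversed, 22 lost their call and 6 gained one. The lost calls were those of CD8A and COL1A2. CD8A (main -0.43) lost its call without HL-60 DMSO replicate 3, HL-60 R406 replicate 1 or 3, KG-1 DMSO replicate 1 or 2 or KG-1 R406 replicate 3, and with 12 arrays only, median centring or repeated quantile normalization. COL1A2 (main -0.36) lost its call without HL-60 R406 replicate 1 or 2, HL-60 DMSO replicate 1 or 2, KG-1 R406 replicate 2 or KG-1 DMSO replicate 2 or 3, and with array weights, averaged probe sets, median centring, a pseudocount of 16, repeated quantile normalization or the block within line. The calls gained were those of PADI4, KRT18 and KLF1. The cause of these changes was not tested.

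Leaving out 1 array gave 1965 to 2123 higher and 1976 to 2178 lower differences, 622 to 986 rises and 678 to 1039 falls in HL-60, 2610 to 2831 rises and 2327 to 2503 falls in KG-1, and 236 to 368 opposite calls. With the replicate block, 2075 differences were higher and 2122 lower, and with the replicate block within line 2015 and 2035, so no count moved by over 1.5 times. Median centring gave 2365 higher and 1865 lower, against 2092 and 2144, and shifted the median difference by 0.055. In HL-60 it gave 752 rises and 981 falls, and in KG-1 2383 rises and 2945 falls, against 2830 and 2510.

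Of the list medians, 655 values stayed within the spread between arrays and 71 moved. Leaving out 1 array gave ranges of -0.35 to -0.13 for stem and progenitor markers, -0.26 to -0.18 for SYK signalling, -0.066 to 0.15 for the BCL2 family, -0.11 to -0.0020 for T and NK markers, -0.20 to -0.083 for myeloid factors, 0.51 to 0.62 for the ATF4 list, 0.20 to 0.41 for NF-kB targets, 0.19 to 0.31 for granulocyte markers, -0.28 to -0.18 for integrins, 0.036 to 0.11 for G1 genes, 0.11 to 0.22 for NRF2 genes, -0.32 to -0.22 for the lysosome, 0.0071 to 0.14 for chemoattractant receptors, -1.18 to -0.96 for primary granules, -1.82 to -1.26 for histones, 0.045 to 0.24 for p53 targets and 0.46 to 0.61 for glycolysis. The mitosis median ran from 0.49, without KG-1 R406 replicate 2, to 1.04.

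Array weights gave -1.14 for primary granules, -0.31 for stem markers and -1.38 for histones. Averaged probe sets gave -0.044 for myeloid factors, 0.47 for STAT5 outputs, 0.13 for G1 genes, 0.16 for the BCL2 family, 0.52 for the ATF4 list and 0.41 for glycolysis. With the dimmest 33.3% of probe sets left out, the medians cover fewer genes and were 0.37 for monocyte and 0.43 for granulocyte markers, -0.67 for stem markers, 0.60 for STAT5 outputs, -1.87 for histones, 0.045 for p53 targets, 0.064 for the BCL2 family, -0.38 for aryl hydrocarbon receptor targets, 0.13 for erythroid, 0.27 for megakaryocyte and -0.23 for T and NK markers. Median centring gave 0.32 for granulocyte markers, -0.14 for stem markers, -0.18 for SYK signalling, -0.17 for integrins, 0.12 for G1 genes, 0.62 for the ATF4 list, 0.23 for NRF2 genes and -0.19 for the lysosome. A pseudocount of 16, which shrinks changes of dim genes by construction, gave 0.38 for the ERK list, 0.13 for monocyte and 0.14 for granulocyte markers, -0.96 for primary granules, -0.073 for myeloid factors, -0.14 for SYK signalling, 0.15 for STAT5 outputs, -0.95 for histones, 0.044 for p53 targets, 0.47 for the ATF4 list, 0.46 for glycolysis, -0.076 for aryl hydrocarbon receptor targets and -0.19 for the lysosome. Repeated quantile normalization gave 0.14 for NRF2 genes. Medians whose sign changed under at least 1 of these alternatives, or on leaving out 1 array, include those of the BCL2 family (main -0.0013), erythroid markers (main -0.075), interferon response (main -0.052, -0.038 to 0.0014), B cell markers (main -0.031, -0.083 to 0.029) and fibroblast and epithelial markers (main -0.010, -0.056 to 0.037). The megakaryocyte median was 0.13, and ran from 0.050 to 0.21, the value without KG-1 R406 replicate 2. Without that array the B cell median was -0.014, and the T and NK median was -0.019 (main -0.038).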

Other observations

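Different probe sets of a gene did not always move alike. Among all single-symbol probe sets, 6246 of 19724 had a called difference (31.7%), and 51 genes had probe sets called in opposite directions. The probe sets of a gene can read different transcript ends, and which of them reads the gene best was not tested.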
